A study of Mus musculus with 15 samples.

Results

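Mouse embryonic fibroblasts that had lost Hdac1 were compared with fibroblasts of intact Hdac1, both grown with tamoxifen, across 13382 genes on Affymetrix Mouse 430 2.0 expression arrays. The comparison used 6 of the 15 arrays of the series, chosen by their titles: 3 of floxed cells (Hdac1 fl/fl) with the scrambled micro-RNA and tamoxifen, here called KO, and 3 of Hdac1 +/+ cells with tamoxifen. All were primary male fibroblasts, and tamoxifen was given at 200 nM. KO cells carried 1 retrovirus for Cre-ERT2, a Cre recombinase that is active only in the presence of tamoxifen, and a second for a scrambled small hairpin micro-RNA. The labels do not name the viruses of the +/+ cells. Tamoxifen itself was matched, but the titles of the +/+ arrays name no micro-RNA. Deletion of Hdac1, the virally delivered Cre, the scrambled micro-RNA and the 2 separate fibroblast populations therefore cannot be told apart by this comparison. For this reason the 3 arrays of floxed cells with the scrambled micro-RNA and ethanol in place of tamoxifen, here called the floxed ethanol control, are given beside the results. That control shares the floxed population and the viruses with KO cells. It differs in tamoxifen, and so in active Cre, as well as in Hdac1. Neither control is known to match the active Cre of KO cells.

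Hdac1 encodes a class I histone deacetylase, an enzyme that removes acetyl groups from histone tails and other proteins. It works together with the closely related Hdac2 in the Sin3, NuRD and CoREST complexes, which transcription factors bring to promoters, where deacetylation mostly accompanies repression. In fibroblasts the pair is known for a role in proliferation, and Cdkn1a, the gene of the cyclin-dependent kinase inhibitor p21, is a textbook target.

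Each value below is a linear intensity as deposited, 1 per probe set and array, and each fold change is a difference of log2(intensity + 16) with its standard error (SE). A value in parentheses after a gene, or after "higher by", is this log2 fold change of KO against +/+ cells, and fold changes of dim genes are understated on this scale. Adjusted p-values come from limma over all genes tested, with 0.05 as the threshold, and means are given with their SD over 3 arrays. The labels number the arrays without tying them to separate cultures. The p-values therefore reflect only how far these arrays spread, which may be technical. The array medians were 25.7 to 27.3 in +/+ cells and 25, 27.3 and 28.6 in KO replicates 1, 2 and 3. Arrays of a group correlated at 0.998 to 0.999 (Pearson's r across genes, which are not independent), and KO with +/+ arrays at 0.989. No 2 arrays held identical values.

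Hdac1 itself was at 4806, 4419 and 4191 in the +/+ arrays and at 155, 144 and 183 in the KO arrays. The groups did not overlap, and the log2 fold change was -4.67 ± 0.15 (adjusted p = 1.06e-12). In the floxed ethanol control, Hdac1 was at 3499, 3498 and 3673, a log2 difference of -0.33 from +/+ cells that did not pass the threshold (adjusted p = 0.11). The position of the Hdac1 probe set relative to the deleted exons was not checked here. Hdac2 was at 7556 ± 120.1 in +/+ and 7167 ± 617 in KO cells (SD, n = 3), a log2 fold change of -0.08 ± 0.07 (adjusted p = 0.507), with overlapping arrays. Hdac3, the deacetylase of the NCoR complexes, differed by -0.15 ± 0.07 (adjusted p = 0.131) and Hdac8 by 0.14 ± 0.10 (adjusted p = 0.398). None of these 3 other class I deacetylases passed the threshold.

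Across all genes, 1711 were higher (12.8% of those tested) and 1516 lower (11.3%) in KO than in +/+ cells. By 2-fold or more, 192 were higher (1.43%) and 134 lower (1%). The median over all genes was a log2 fold change of -0.0075, and the median SE was 0.0868. The share of higher genes among all that passed was 53%, but 49.7% after quantile normalization. Without KO replicate 1 it was 67.7%, with 976 lower genes, and without KO replicate 3 it was 36.2%, with 2287 lower genes; these are the dimmest and the brightest KO array. These figures are the background against which the gene groups below are read.

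**Figure D1:**
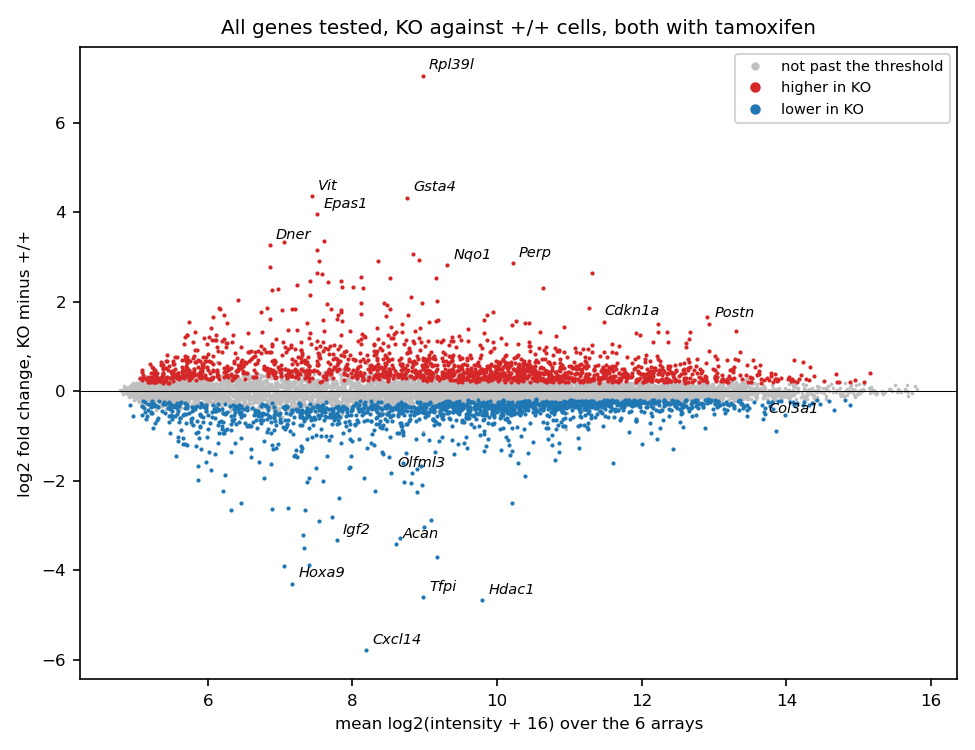
Each point is 1 of the 13382 genes tested, with its mean log2(intensity + 16) over the 6 arrays on the x axis and its log2 fold change, KO minus +/+, on the y axis; red and blue points passed the threshold. Rpl39l at 7.06 and Cxcl14 at -5.79 lie at the ends, and Hdac1 lies at -4.67.

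Targets of p53 were higher in KO cells. The transcription factor p53 answers DNA damage and other stress by inducing genes of cell cycle arrest, cell death, repair and its own feedback. Of 45 targets tested, 32 were higher (71.1%) and 2 lower (4.44%), with a median log2 fold change of 0.61. Over all genes tested the shares were 12.8% and 11.3%. Against the floxed ethanol control, with which this comparison shares the KO arrays, 35 were higher (19.6% of all genes were) and 0 lower (4.66% of all genes), with a median of 0.56.

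Cdkn1a was at 3109, 3706 and 3081 in +/+ cells and at 7432, 8638 and 8855 in KO cells. The lowest KO array lay above the highest +/+ array, a log2 fold change of 1.33 ± 0.08 (adjusted p = 6.21e-09). The floxed ethanol control was at 2786, 2919.5 and 2727, below every +/+ array, although that difference missed the threshold (adjusted p = 0.0512). The 250 bases before the RefSeq start of Cdkn1a (GRCm38.p6, chr17:29090729-29090978, plus strand) are shown because it was the only member whose promoter held 2 copies of CATG with 6 bases between them, as in the core of a p53 binding site. The match is in capitals, and its first base lies 48 bases before 1 of the 2 RefSeq starts of Cdkn1a in the table.
Cdkn1a: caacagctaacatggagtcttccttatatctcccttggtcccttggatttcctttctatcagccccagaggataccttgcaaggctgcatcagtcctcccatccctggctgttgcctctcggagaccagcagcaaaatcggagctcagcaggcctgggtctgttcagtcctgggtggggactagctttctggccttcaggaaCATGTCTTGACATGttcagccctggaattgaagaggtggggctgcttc
That motif reads the same on both strands. It was searched in the 250 bases before the start of every gene with a promoter sequence from RefSeq (GRCm38.p6). It was present in 1 of 35 p53 targets and in 30 of 10734 tested genes (0.279%). A match is a description of the letters and not a binding site, and p53 sites outside this window were not searched.

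Among feedback and signalling targets, 12 of 16 were higher and 1 lower. Mdm2 encodes the ubiquitin ligase that degrades p53. Its intensity was 1162, 1129.8 and 1189 in +/+ cells and 2529, 2781 and 2963 in KO cells, against 1051, 1058 and 973 in the floxed ethanol control. The KO arrays thus lay above all arrays of both controls, with a log2 fold change of 1.23 ± 0.07 (adjusted p = 1.46e-09). Trp53inp1, which encodes a stress-induced partner of p53, was at 3747, 3422 and 3631 in +/+ and 7248, 7821 and 8016 in KO cells (log2 fold change 1.09 ± 0.08). Btg2, an antiproliferative early response gene, was higher by 1.07.

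Of 13 targets linked to cell death, 7 were higher and 1 lower, with the dicarbonyl reductase gene Dcxr, listed among them, higher by 1.03 ± 0.07. Perp, which encodes a membrane protein of p53-dependent death and of desmosomes, was at 408, 458 and 413 in +/+ and at 2837, 3290.0 and 3464 in KO cells. This was the largest fold change of the list (2.86 ± 0.08, adjusted p = 2.76e-13), but the floxed ethanol control was already at 1657, 1666 and 1589.9, between the groups. Eda2r, a death receptor of the TNF receptor family, was at 423, 484 and 483 in +/+, at 1047, 1325 and 1389 in KO and at 393, 393 and 335 in floxed ethanol cells. Here the ethanol arrays were the lowest and the KO arrays lay above both controls, with a log2 fold change of 1.40 ± 0.10 against +/+ cells. Pmaip1 encodes the BH3-only protein Noxa. It was at 757, 884 and 839 in +/+ and 1313, 1544 and 1454 in KO cells (0.79 ± 0.14), and its floxed ethanol arrays, at 290.3, 476 and 451, were the lowest of the 3 groups.

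Of 16 targets in repair and metabolism, 13 were higher and 0 lower. Ephx1, the microsomal epoxide hydrolase, was at 4049.7, 4314 and 4007 in +/+ and 9623, 10589.7 and 10722 in KO cells (1.32 ± 0.06), with the floxed ethanol control in between at 6048, 6097 and 5803. Polk, a DNA polymerase that copies past damaged bases, was higher by 1.12 ± 0.09, and its floxed ethanol control was at 592 ± 30.7 beside 510.5 ± 29.1 in +/+ cells. Gtse1, which encodes a microtubule-bound regulator of p53 and is counted with the feedback targets, was higher than in +/+ cells by 1.25 (adjusted p = 6e-06), but the floxed ethanol control was at 890.3, 860.0 and 840.4, and the difference of KO from it did not pass (0.32, adjusted p = 0.112). The 2 lower targets were Steap3, a ferrireductase, at -0.74 and the kinase Plk3 at -0.52.

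**Figure D2:**
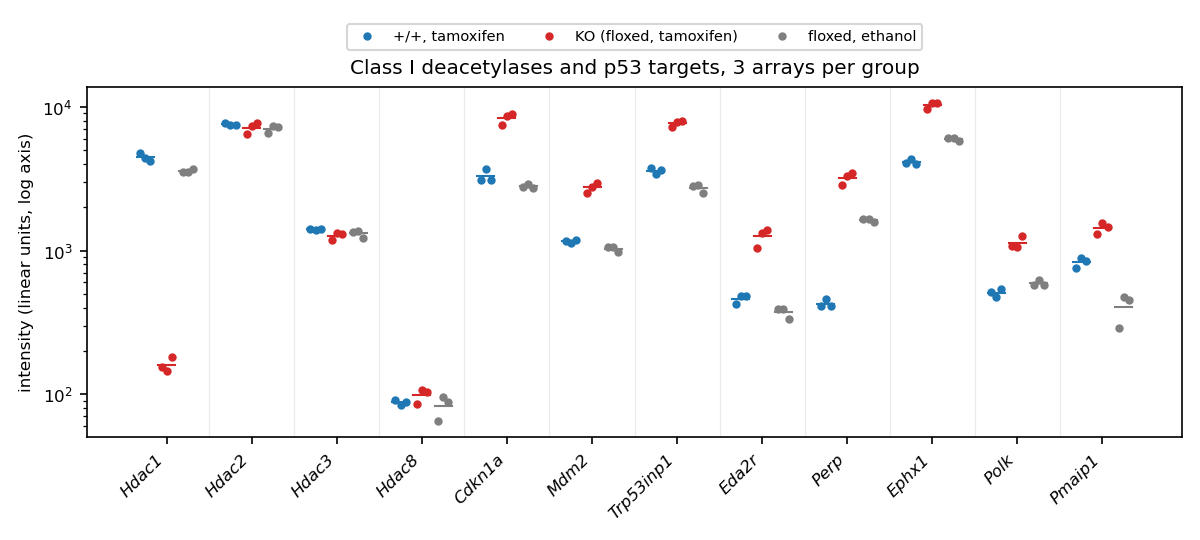
Intensity on a log axis for the 4 class I deacetylases and 8 p53 targets; points are arrays and short lines are means of 3 arrays in +/+ cells with tamoxifen, KO cells and floxed cells with ethanol. KO arrays lie between 144 and 183 for Hdac1, and for Cdkn1a, Mdm2 and Eda2r they lie above both other groups, which lie close together, while for Perp the ethanol group lies between.

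Regulators of the cell cycle moved in both directions, 7 higher and 7 lower of 29 (24.1% each way), beside 12.8% and 11.3% of all genes. Among inhibitors other than Cdkn1a, Cdkn2c, which encodes the CDK4 and CDK6 inhibitor p18, was at 1134, 1112 and 1110.5 in +/+ and at 568, 634 and 744 in KO cells (-0.78 ± 0.08, adjusted p = 2.41e-06). The floxed ethanol control was at 1107, 1108 and 1115, level with +/+ cells. Cdkn1c, which encodes p57, was at 425, 486 and 413 in +/+ and 128, 191 and 209 in KO cells (-1.27 ± 0.13), and here the floxed ethanol control, at 166, 135 and 146, lay with the KO arrays. Cdkn1b, which encodes p27, was lower (-0.30 ± 0.07). Cdkn2b (0.18, adjusted p = 0.426) and Cdkn2a (-0.13, adjusted p = 0.879), the products of the Ink4 locus, did not pass. Ccnd1 and Ccnd2, which encode the D cyclins that drive G1, were higher by 0.91 ± 0.08 and 0.69 ± 0.08. Ccnd1 was at 5892, 5552 and 5600.1 in +/+ and 9494, 11759 and 10905 in KO cells, without overlap. Neither Ccne1 (-0.10 ± 0.09, adjusted p = 0.508) nor Ccna2 (-0.33 ± 0.15, adjusted p = 0.132) passed. Ccna2 passed with only the 6 compared arrays in the fit (adjusted p = 0.0224) and with 2 other settings.

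Genes of DNA replication and of mitosis that passed the threshold were all lower in KO cells. Of 50 replication genes 0 were higher and 10 lower (20%), with a median of -0.16, and of 58 mitosis genes 0 were higher and 12 lower (20.7%), with a median of -0.28. Over all genes 11.3% were lower. Against the floxed ethanol control the replication list had 0 higher and 36 lower (72%, median -0.39). The mitosis list had 1 higher and 25 lower (43.1%, median -0.43), where 19.6% of all genes were higher and 4.66% lower. In floxed ethanol against +/+ cells 12 replication genes were higher (24%) and 0 lower, with a median of 0.20. Of the mitosis genes 4 were higher there (6.9%) and 1 lower, with a median of 0.16, beside 6.93% and 21.5% of all genes. The counts of KO against +/+ cells moved with single settings. Mitosis had 27 lower genes with only the 6 compared arrays in the fit, and 5 to 7 when KO replicate 1 or 2 or +/+ replicate 1 or 2 was left out. For replication the count was 5 or 6 without any 1 of those arrays, and 18 without KO replicate 3.

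The kinetochore component Spc24 was at 1022, 1005 and 1012 in +/+ and 549, 577 and 683 in KO cells, with the floxed ethanol control at 1221, 1194 and 1083. KO arrays were below both other groups (-0.74 ± 0.19, adjusted p = 0.00848). Birc5, which encodes the chromosomal passenger protein survivin, was at 6413, 6352 and 5916 in +/+ and 3579, 3995 and 4521 in KO cells (-0.63 ± 0.16). Ndc80, another kinetochore gene, was lower (-0.51 ± 0.12), as was Ube2c, the ubiquitin-conjugating enzyme of the anaphase-promoting complex (-0.44 ± 0.11). In replication, Rfc2, a subunit of the clamp loader, was lower (-0.46 ± 0.11), as was Pold2, a subunit of DNA polymerase delta (-0.36 ± 0.07). With the mean of its probe sets Rfc2 was at -0.26. Pold2 was at 1384, 1459 and 1403 in +/+ and at 1011, 1118 and 1168 in KO cells, and its floxed ethanol arrays were above both at 1693, 1651 and 1579. Fewer dividing cells and less RNA of these genes per cell cannot be told apart in bulk samples.

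Promoters of mitosis genes often hold TTTGAA, the core of the cell cycle homology region through which the DREAM complex, a repressor of cell cycle genes, is recruited. It is shown with flanking bases for the 4 lower mitosis members that hold it, where the position given is that of the printed bases in GRCm38.p6 (RefSeq), read along the gene and with the match or its complement TTCAAA in capitals.
Cdk1: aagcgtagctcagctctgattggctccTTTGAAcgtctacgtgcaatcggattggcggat
Top2a: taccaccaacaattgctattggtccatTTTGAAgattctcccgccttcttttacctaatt
Smc2: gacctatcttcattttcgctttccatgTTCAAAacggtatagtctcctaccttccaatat
Ube2c: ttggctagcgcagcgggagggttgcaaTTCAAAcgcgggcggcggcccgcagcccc
These lie at chr10:69352951-69353010 (minus strand) for Cdk1, the kinase of mitotic entry, at chr11:99024336-99024395 (minus strand) for the DNA topoisomerase Top2a, at chr4:52439049-52439108 (plus strand) for the condensin subunit Smc2 and at chr2:164769873-164769928 (plus strand) for Ube2c. On either strand the motif was in the 250 bases before the start of 17 of 48 mitosis genes with a promoter sequence (35.4%) and in 1401 of 10734 tested genes (13.1%). It was in 4 of 8 lower members and in 13 of 40 members without a call (32.5%). Cdk1 was at 8476, 8575 and 7984 in +/+ and 6232, 6227 and 7169.9 in KO cells (-0.35 ± 0.10, adjusted p = 0.0154), and both Top2a (-0.44 ± 0.13) and Smc2 (-0.33 ± 0.11) were lower. The call of Cdk1 was lost without KO replicate 1 (adjusted p = 0.0541), KO replicate 2 (0.0621) or +/+ replicate 2 (0.0545). Top2a lost its call without KO replicate 1 or 2 or +/+ replicate 1 or 2 (adjusted p = 0.0609 to 0.0963), and with the mean of its probe sets in place of the brightest it was at -0.15 (adjusted p = 0.598). Smc2 lost its call without KO replicate 1 or 2 or any 1 of the +/+ arrays (adjusted p = 0.0563 to 0.106).

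The largest single changes were of another kind. Of the 12 highest and the 12 lowest genes, several had their floxed ethanol arrays close to the KO arrays and far from +/+ cells. Rpl39l, a paralog of a ribosomal protein gene, was at 28.9, 23.6 and 30.2 in +/+ and at 5287, 5827 and 6236 in KO cells, a log2 fold change of 7.06 ± 0.08 (adjusted p = 2.71e-18). The floxed ethanol control was at 5041, 5429.6 and 5485, and KO cells did not differ from it beyond the threshold (0.12, adjusted p = 0.325). Array probe sets may cross-hybridise between such close paralogs, which was not tested.

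The other genes of the highest 12 with the same layout were Vit, Cd34, Crip1, Tmem35a, Aqp1 and Vdr. Vit, which encodes the matrix protein vitrin, was at 17.2, 24 and 25.6 in +/+, 670.3, 858 and 799.8 in KO and 796, 774 and 670.4 in floxed ethanol cells. Cd34, a surface sialomucin, went from 144 to 1326 beside 1505 in floxed ethanol cells, and Aqp1, a water channel, from 104 to 887 beside 872. Crip1, a LIM domain protein gene, was higher by 2.94, Tmem35a by 2.92 and Vdr, the vitamin D receptor, by 3.33. For each of these 6 genes KO minus floxed ethanol did not pass.

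In a second layout the floxed ethanol arrays lay between +/+ and KO. Gsta4, a glutathione transferase, was at 80.6, 69.1 and 93.9 in +/+, 968, 1068 and 1011 in floxed ethanol and 1746, 1873 and 2204 in KO cells, and both steps passed (3.41 and 0.92). Epas1, the oxygen-regulated transcription factor HIF-2 alpha, was at 33.9, 34 and 24.1, 255, 243 and 205 and 682, 663 and 769 in the same order, steps of 2.43 and 1.53; with the mean of its probe sets its difference from +/+ cells was 2.09 in place of 3.95. Tspan17, a tetraspanin, took steps of 2.58 and 0.78 and the glycosyltransferase gene Galnt18 of 1.82 and 1.33. For Dner, a Notch ligand of the neural lineage, the second step was the larger (1.12 and 2.14): it was at 19.2, 20.8 and 24.1 in +/+, 47.7, 102 and 55.6 in floxed ethanol and 317, 429.8 and 295 in KO cells.

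Among the lowest 12, the chemokine Cxcl14 was at 2314, 2084 and 2077 in +/+ cells and at 17.4, 25 and 27.9 in KO cells (-5.79 ± 0.10, adjusted p = 1.43e-15), with the floxed ethanol control lower still at 14.4, 16.7 and 13.3. Tfpi, the inhibitor of tissue factor in coagulation, was at 2404, 2491 and 2550.3 in +/+, 98.2, 86.8 and 75.9 in KO and 79.8, 93.8 and 61.5 in floxed ethanol cells. Sfrp1, a secreted Wnt antagonist, Lipo3, a lipase gene, and Sox2, a transcription factor of stem and neural cells, were lower, with log2 fold changes of -3.50, -3.88 and -3.90. Their floxed ethanol means were 39.1, 26.8 and 31.7, against 531, 639.7 and 502 in +/+ cells. With the mean of its probe sets Sfrp1 was at -1.68. Sox2 and Hoxa9 were not above the 40th percentile of any KO array (19.3 to 21.6), so their folds depend on the added constant. The membrane glutathione transferase Mgst1 was at 521, 484 and 410.5 in +/+ and 32.4, 34 and 43.2 in KO cells, but at 16, 15 and 15.6 in floxed ethanol cells, below KO.

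Capn6, a calpain without protease activity, the cartilage proteoglycan gene Acan and Ripk3, the kinase of necroptosis, had floxed ethanol arrays between the groups. Acan was at 1124, 1518 and 1160.5 in +/+, 292, 379 and 374 in floxed ethanol and 99.8, 85.6 and 129 in KO cells, steps of -1.81 and -1.60. Ripk3 was at 1326, 1297 and 1131, 220.4, 168 and 202 and 139.7, 85.7 and 123 in that order. The log2 fold change of Capn6 was -3.70 ± 0.11 against +/+ cells and -1.24 against the floxed ethanol control.

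**Figure D3:**
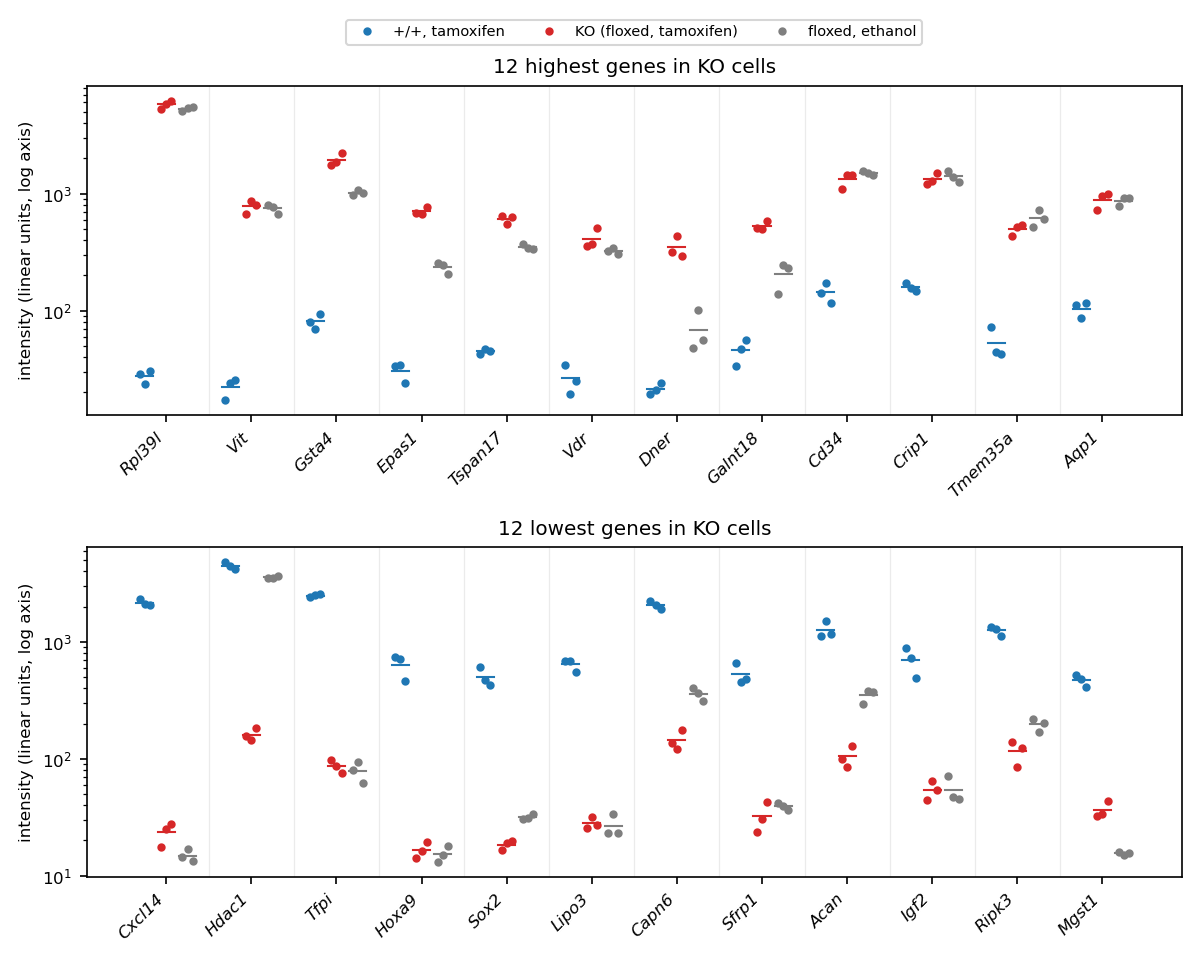
Intensity on a log axis for the 12 highest (top) and 12 lowest (bottom) genes in KO against +/+ cells; points are arrays, short lines are means of 3 arrays, and grey points are floxed cells with ethanol. Grey points lie with the red KO points for Rpl39l, Vit, Cd34 and Tfpi, between the groups for Gsta4, Epas1 and Acan, and near the blue +/+ points for Hdac1.

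Genes of detoxification were higher more often than lower. NRF2, a transcription factor of oxidative stress, and the aryl hydrocarbon receptor induce such genes in fibroblasts. Of 47 tested, 19 were higher (40.4%) and 7 lower (14.9%), with a median of 0.20, beside 12.8% and 11.3% of all genes. Against the floxed ethanol control 15 were higher (31.9%, with 19.6% of all genes) and 4 lower (8.51%, with 4.66% of all genes). Floxed ethanol cells had 14 higher than +/+ cells (29.8%, with 6.93% of all genes) and 10 lower (21.3%, with 21.5% of all genes). In the subgroup of quinone reduction and glutathione synthesis, 10 of 22 were higher and 1 lower, among glutathione transferases and transporters 6 of 18 were higher and 4 lower, and of 7 genes of the aryl hydrocarbon receptor 3 were higher and 2 lower.

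Nqo1, a quinone reductase and classic NRF2 target, was at 178, 277 and 221 in +/+ and 1623, 1596 and 1809 in KO cells (2.83 ± 0.18, adjusted p = 1.11e-08). The floxed ethanol control was at 1139, 1222 and 1027, nearer to KO. Gclc, the catalytic subunit of glutathione synthesis, was higher by 0.91 ± 0.08, but Gclm, its partner subunit, was the lower member of that subgroup (-0.30 ± 0.10, adjusted p = 0.0376). Gstm2 was at 443, 616 and 503 in +/+ and 1781, 1803 and 1867 in KO cells (1.78 ± 0.10), and the transporter gene Abcc4 was higher by 1.52 ± 0.12. Gstk1 and Gstt1, other glutathione transferases, were lower (-1.37 ± 0.17 and -1.26 ± 0.16). The receptor gene Ahr was lower (-0.69 ± 0.10), while its repressor Ahrr was higher by 1.01 ± 0.12. The NRF2 motif TGACNNNGC, searched on both strands, was in the promoter windows of 9 of 40 members (22.5%), in 2 of the 16 higher members (12.5%) and in 13.7% of all tested genes.

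Imprinted genes, which are expressed from 1 parental copy and include many fetal growth regulators, were lower more often than higher. Of 38 tested 4 were higher (10.5%) and 13 lower (34.2%), beside 12.8% and 11.3% of all genes. Against the floxed ethanol control the balance was the other way, with 8 higher (19.6% of all genes were) and 4 lower (4.66%), and floxed ethanol cells had 1 higher and 18 lower than +/+ cells (6.93% and 21.5% of all genes). Igf2, the fetal growth factor, was at 886, 723 and 495 in +/+ and 44.3, 64.2 and 54.1 in KO cells (-3.32 ± 0.18, adjusted p = 1.08e-09), and the floxed ethanol control was at 71.2, 47.5 and 45. With the mean of its probe sets Igf2 was at -1.71. Mest, a hydrolase gene, was at 1476, 1582 and 1329 in +/+, 569, 409 and 426 in floxed ethanol and 209, 185 and 161 in KO cells, so that both steps were downward (-1.62 and -1.26). Nnat, a membrane protein gene of the developing brain, was lower (-2.22 ± 0.12), as were the amino acid transporter gene Slc38a4 (-1.12 ± 0.10) and the Notch-like Dlk1 (-0.61 ± 0.08). Dlk1 was at 4989.8, 4641 and 4677 in +/+ and 4450.1, 4265 and 4054 in floxed ethanol cells, where no difference passed (adjusted p = 0.123), and at 2855, 3014 and 3526 in KO cells. Among the 4 higher members Nap1l5, a histone chaperone family gene, was at 58.3, 75.4 and 126 in KO against 32.2, 29.2 and 25.7 in +/+ cells (1.14 ± 0.18). The KO arrays of Nap1l5 were spread more widely than those of the other members named here.

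Hox and positional genes, which record where along the body a fibroblast arose, were lower in 20 of 43 (46.5%) and higher in 5 (11.6%), with a median of -0.28. Over all genes 11.3% were lower and 12.8% higher. Of 17 Hox genes tested 0 were higher and 8 lower. In 9 of the 20 lower members, 5 of them Hox genes, no KO array was above the 40th percentile, so these members were above the filter where they were high, and the counts are given as a description only. Against the floxed ethanol control 4 members of the list were higher (9.3%) and 9 lower (20.9%), beside 19.6% and 4.66% of all genes. Hoxa9 was at 746, 708 and 459 in +/+ cells, 14, 16.3 and 19.5 in KO and 13.2, 15 and 17.8 in floxed ethanol cells (-4.30 ± 0.13). Hoxa10 was at 136, 99.5 and 71.1 against 12.8, 13.8 and 13.1 (-1.98) and Hoxc10 at 88.5, 60.6 and 43 against 11, 13.6 and 12.6 (-1.46), again with floxed ethanol means, 13 and 12.8, at the level of KO. Neither gene was above the 40th percentile of any KO or floxed ethanol array, so their fold changes are measured against background and depend on the added constant. With a pseudocount of 1 Hoxc10 was at -2.22, and with the mean of probe sets Hoxa9 was at -2.28 and Hoxa10 at -1.04. Without +/+ replicate 1 the difference of Hoxa10 was -0.12 (adjusted p = 0.269). Of the other positional genes, the homeobox gene Lhx9 was higher, at 231, 334 and 257 in +/+ and 1016, 1239 and 1192 in KO cells beside 1152, 1216 and 1134 in floxed ethanol cells, and Foxf1, a forkhead gene of the splanchnic mesoderm, was higher by 1.44 ± 0.07 (0.80 with the mean of its probe sets). Pax9, a gene of skeletal patterning, was lower (-1.08 ± 0.16). The count of lower members of this list was 11 without +/+ replicate 1 or without +/+ replicate 2.

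**Figure D4:**
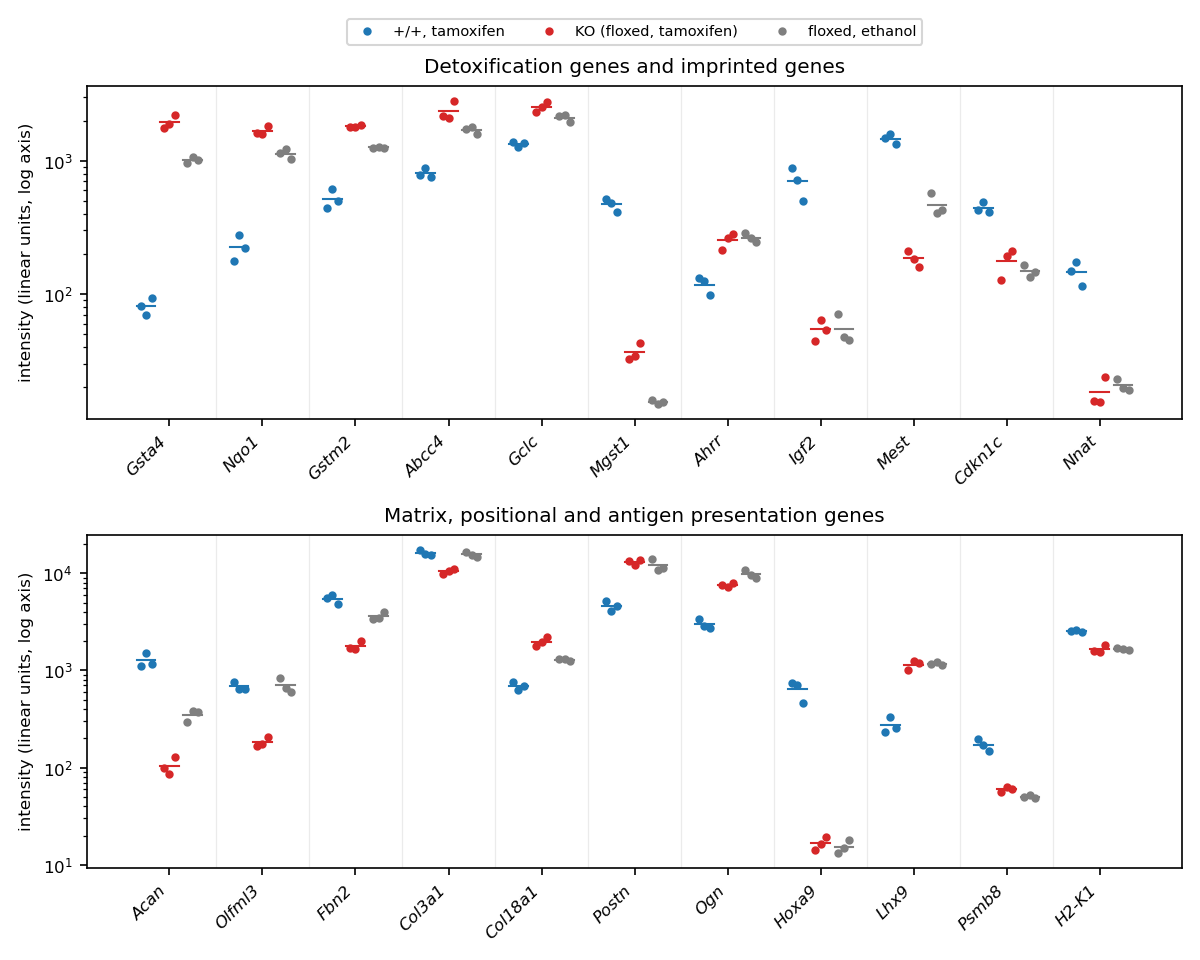
Intensity on a log axis for genes of detoxification and imprinting (top) and of matrix, position and antigen presentation (bottom); points are arrays, short lines are means of 3 arrays, in +/+ cells with tamoxifen, KO cells and floxed cells with ethanol. Olfml3 and Col3a1 have the ethanol group beside +/+ cells, while Igf2, Nnat, Hoxa9, Lhx9 and Postn have it beside KO cells.

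The extracellular matrix changed in both directions. Of 47 collagen genes and their processing enzymes 10 were higher and 10 lower (21.3% each way). Of 81 glycoproteins, proteoglycans and matrix proteases 22 were higher (27.2%) and 24 lower (29.6%). Over all genes 12.8% were higher and 11.3% lower. The median of the collagen list was 0.0085, and -0.0015 after quantile normalization. Among the fibrillar collagens, Col3a1 was at 17313, 15659.5 and 15464 in +/+ and 9887, 10562 and 11173 in KO cells (-0.61 ± 0.07, adjusted p = 9.64e-06), and at 16612, 15471 and 14792 in floxed ethanol cells, level with +/+. Col1a1 was lower (-0.43 ± 0.08, and -0.23 with the mean of its probe sets). Col18a1, a basement membrane collagen, was higher by 1.49 ± 0.10, at 757, 626 and 698 against 1781, 1975 and 2187.

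Olfml3, which encodes a secreted matrix scaffold protein, was at 764, 647 and 648 in +/+ and at 166, 175 and 205 in KO cells (-1.83 ± 0.11, adjusted p = 7.16e-09). Its floxed ethanol arrays, at 844, 663 and 604, overlapped the +/+ arrays. Fbn2, a fibrillin of elastic fibres, was at 5537, 5993 and 4852 in +/+, 3385, 3454 and 3976 in floxed ethanol and 1703, 1647 and 1997 in KO cells, and Emilin1, an elastic fibre glycoprotein, was lower (-1.28 ± 0.09). Postn, the matricellular protein periostin, was higher at 13505, 12177 and 13812 in KO against 5182, 4132 and 4553 in +/+ cells, but the floxed ethanol control was at 14169, 10868 and 11273. Ogn, a small leucine-rich proteoglycan, was higher by 1.33 ± 0.09, and its floxed ethanol mean, 9761 ± 993, was above that of KO, 7546 ± 357. Of 21 cartilage and bone genes 3 were higher (14.3%) and 5 lower (23.8%), beside 12.8% and 11.3% of all genes. Sox9, the transcription factor of chondrocytes, was lower (-1.12 ± 0.12), as was Cnmd, a cartilage glycoprotein (-1.30 ± 0.10). Msx2, a homeobox gene of bone, was higher by 1.78 ± 0.10 (1.02 with the mean of its probe sets) and Col2a1, the main cartilage collagen, by 0.79 ± 0.09. The floxed ethanol means of Sox9, Cnmd and Col2a1 were 410, 19.3 and 9162, against 387, 22.4 and 10913 in KO cells. In +/+ cells these means were 852, 78.7 and 6299. Cnmd was close to the 40th percentile of the KO arrays (19.3 to 21.6), so its fold depends on the added constant.

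Growth factor and TGF-beta genes had 19 higher (27.5%) and 12 lower (17.4%) of 69, beside 12.8% and 11.3% of all genes. In the TGF-beta and BMP branch 11 of 34 were higher (32.4%) and 3 lower (8.82%). Grem1, a secreted BMP antagonist, was at 4407, 3881 and 4598 in +/+, 7755, 7761 and 7532 in floxed ethanol and 12624, 12179.5 and 16341 in KO cells (1.66 ± 0.10 against +/+). Inhbb, a subunit of activin B, was at 326, 385 and 256 in +/+, 241, 314 and 323 in floxed ethanol and 866, 1088 and 1029 in KO cells, so that both controls lay together below KO (1.59 ± 0.14, adjusted p = 2.91e-07). Igfbp6, which binds IGF-II, was higher by 2.34 ± 0.23, with a floxed ethanol mean of 576 ± 33.6 beside 510.1 ± 77.2 in KO cells. Among receptors and ligands of tyrosine kinases, Pdgfra was at 2117, 1871 and 1698 in +/+, 1118, 1219.9 and 1077 in floxed ethanol and 652, 702 and 714 in KO cells (-1.43 ± 0.15). Pdgfd, a PDGF ligand, was lower (-1.71 ± 0.21), and Kitl, the ligand of Kit, was higher by 1.32 ± 0.14. With the mean of probe sets Inhbb was at 0.87, Pdgfd at -0.91 and Kitl at 0.60.

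Wnt and Notch genes had 9 higher (18.4%) and 6 lower (12.2%) of 49, near the 12.8% and 11.3% of all genes. Beside Sfrp1, the lower members were led by the Wnt receptor Ror1 (-1.71 ± 0.12) and the ligand Wnt5b (-1.46 ± 0.08), and the higher members, beside Dner, by Notch3 (1.14 ± 0.12) and Lgr4, a receptor for R-spondins (1.10 ± 0.09). Notch3 rested on 1 probe set: without _x_at and _s_at probe sets, which can match several transcripts, it was at 0.18 (adjusted p = 0.262), Wnt5b at -0.45 and Dner at 1.84. With the mean of probe sets Ror1 was at -0.74, Wnt5b at -0.96 and Notch3 at 0.66.

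Chemokines and senescence factors had 13 higher (31.7%) and 7 lower (17.1%) of 41, beside 12.8% and 11.3% of all genes. Of 14 chemokines 6 were higher (42.9%) and 2 lower (14.3%). Ccl7, which attracts monocytes, was at 243, 232 and 193 in +/+, 1236, 1436 and 1399 in KO and 1103, 1151 and 1243 in floxed ethanol cells. The neutrophil attractant Cxcl1 was at 375, 223 and 155 in +/+ and 931, 950.3 and 1027 in KO cells (1.97 ± 0.23), but at 3173, 2554 and 2587 in floxed ethanol cells, so that KO was above 1 control and below the other. Ccl9 was higher than in either, at 814, 945 and 1008 against 163, 261 and 189 in +/+ and 418, 495 and 402 in floxed ethanol cells.

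In antigen presentation, 6 of 12 MHC class I genes and helpers were lower (50%) and 0 higher, with a median of -0.35. Over all genes 11.3% were lower and 12.8% higher. Against the floxed ethanol control 0 MHC genes were lower (4.66% of all genes were) and 4 higher (33.3%, with 19.6% of all genes), with a median of 0.18. Floxed ethanol cells had 9 lower (75%, with 21.5% of all genes) and 0 higher (6.93% of all genes) than +/+ cells. Psmb8, a subunit of the immunoproteasome, was at 196, 170.4 and 149 in +/+ and 56.3, 63.5 and 60.7 in KO cells (-1.30 ± 0.10). The class I heavy chains H2-K1 and H2-D1, which share sequence, were lower (-0.63 ± 0.07 and -0.58 ± 0.07), as was the peptide transporter gene Tap2 (-0.67 ± 0.08). For these 4 genes the floxed ethanol means were 50.1, 1669, 1841 and 35.6, against 60.2, 1651, 2123 and 41.4 in KO cells. With the mean of probe sets Psmb8 was at -0.74 and H2-D1 at -0.34. Of 28 interferon-stimulated genes 4 were higher (14.3%) and 2 lower (7.14%), beside 12.8% and 11.3% of all genes. Ifit1 was at 14.5, 15.7 and 15.5 in +/+ and 13.9, 15.3 and 12.7 in floxed ethanol cells and at 75.3, 48.7 and 113 in KO cells (1.55 ± 0.20), a dim gene with a wide KO spread that was above the 40th percentile of no +/+ array. Bst2, which encodes the antiviral protein tetherin, was lower (-1.15 ± 0.18).

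Contractile and cytoskeletal genes had 11 higher (27.5%) and 3 lower (7.5%) of 40, beside 12.8% and 11.3% of all genes. Actg2, a smooth muscle actin, was at 2743, 2702 and 2990.5 in +/+, 5489, 5684 and 5275 in floxed ethanol and 7494, 8408 and 8239 in KO cells (1.51 ± 0.08), and Acta1, the skeletal muscle actin, was higher by 1.44 ± 0.16. Csrp2, a LIM protein of smooth muscle, was lower (-1.30 ± 0.09).

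The counts against +/+ cells and against the floxed ethanol control differed for many groups. In KO against +/+ cells 12.8% of all genes were higher and 11.3% lower. Against the ethanol control 19.6% of all genes were higher and 4.66% lower, and in that control against +/+ cells 6.93% were higher and 21.5% lower, so that counts of higher members start from a higher background there. Of the matrix groups the collagens had 12 higher and 4 lower against floxed ethanol cells, and the glycoproteins and proteases 23 and 15. Growth factor and TGF-beta genes had 25 and 3, and contractile genes 20 and 1. Of 31 immediate early genes, which growth factors and stress induce within minutes, 10 were higher and 8 lower than in +/+ cells (median 0.02), against 23 and 0 relative to floxed ethanol cells (median 0.53). Floxed ethanol cells in turn had 2 higher and 18 lower than +/+ cells. Dusp5, a phosphatase of ERK, was at 735, 913 and 929 in +/+, 231, 213 and 296 in KO and 112, 141 and 139 in floxed ethanol cells, so KO was below 1 control and above the other. Klf2, a zinc finger factor, was higher by 1.05 ± 0.13. Of 56 lysosome and autophagy genes 14 were higher and 3 lower than in +/+ cells (median 0.06), against 41 and 0 relative to floxed ethanol cells (median 0.36). Ctsz, a lysosomal protease, was at 7304, 7075 and 6624 in +/+ and 9332, 10658 and 11192 in KO cells (0.57 ± 0.08), and Ctsk, another protease, was lower (-0.61 ± 0.14). Of 33 genes of cholesterol and fatty acid synthesis 5 were higher and 8 lower than in +/+ cells (median -0.11), against 15 and 0 relative to floxed ethanol cells. These comparisons share arrays, and the difference between the controls includes tamoxifen, genotype, cell population and, by the titles, the scrambled micro-RNA. Whether the controls also differ in Cre virus is not in the labels.

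**Figure D5:**
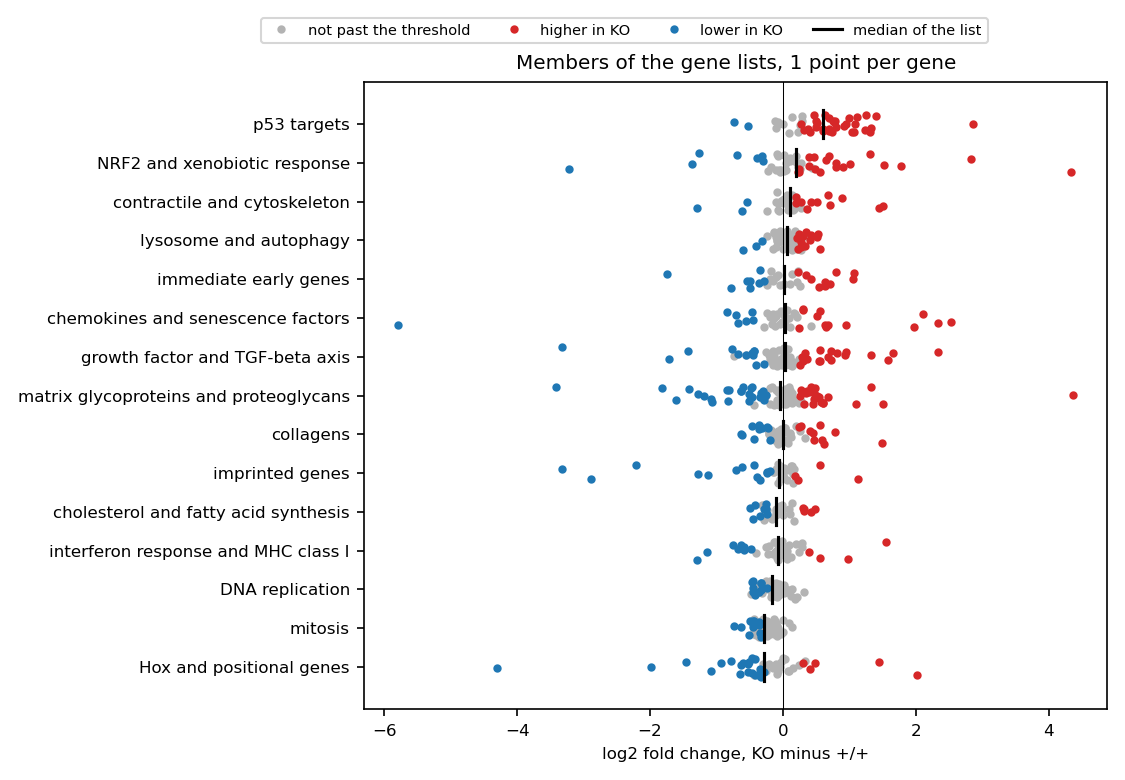
Each point is 1 tested member of a gene list at its log2 fold change, KO minus +/+; vertical position within a row is random, red and blue points passed the threshold, and black lines are medians. The p53 targets have the highest median, 0.61, and the mitosis and Hox lists the lowest, both -0.28.

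Among the partners of Hdac1, 4 of 44 genes of deacetylase complexes were higher (9.09%) and 6 lower (13.6%), Hdac1 included. Over all genes 12.8% were higher and 11.3% lower, so these counts are near the background. Arid4a and Sap130, both of the Sin3 complex, were higher (0.79 ± 0.13, and 0.43 with the mean of its probe sets) and lower (-0.57 ± 0.13, and -0.36 without KO replicate 2) respectively, and the class II deacetylase Hdac7 was higher by 0.75 ± 0.14. Of 9 members of the CoREST complex 0 passed. Of 12 histone genes 1 was higher (8.33%), the linker histone H1f2 (0.63 ± 0.10), and 3 were lower (25%), among them the variants Macroh2a1 (-0.71 ± 0.11) and H2ax (-0.44 ± 0.07). H1f2 was at 3158, 2758 and 3009 in +/+ and 4547, 4499 and 4804 in KO cells, and at 2678, 2340.0 and 2421 in floxed ethanol cells, and with the mean of its probe sets its difference was 0.42. Of 17 estrogen response genes, listed because tamoxifen binds the estrogen receptor, 5 were higher (29.4%) and 1 lower (5.88%, median 0.05), with tamoxifen in both groups.

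The 10 protein-coding genes on each side of Hdac1 in a RefSeq gene table, on chromosome 4, held 13 tested genes, of which 2 were higher and 2 lower, with a median of -0.02. Over all genes 12.8% were higher and 11.3% lower, so the counts of these neighbours are near the background. C77080 (0.66) and Ccdc28b (0.47) were higher, Tmem39b (-0.63) and Zbtb8a (-0.24) lower, and the nearest tested neighbour, Marcksl1, did not pass (-0.16, adjusted p = 0.106).

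Markers were read in all 6 arrays as a check of the labelled cell type. The 14 fibroblast markers passed the filter, although Lum (61.6 ± 6.28 in +/+ and 18.1 ± 2.20 in KO cells) was not above it in KO, and had summed intensities of 225955 to 237489 in +/+ and 224368 to 256940 in KO cells; 3 were higher and 6 lower in KO. Thy1, a fibroblast surface protein, was lower (-0.95), with floxed ethanol cells lower still (280.4 ± 10.2, against 641 ± 105 in KO). Macrophage and blood markers summed to 401 to 534 in +/+ and 522 to 725 in KO cells, and 7 of 12 were above the filter in at least 1 of the 6 arrays. Of these Cd14 was higher (0.62, adjusted p = 0.0203) and Csf1r was at 123 and 176 (adjusted p = 0.106), while Ptprc, Itgam and Tyrobp were not above it. Endothelial markers summed to 264 to 303 in +/+ and 199.7 to 257 in KO cells, with 3 of 10 above the filter. Egfl7 was lower (-0.49, adjusted p = 0.0128), and Pecam1 and Cdh5 were not above the filter. Skeletal muscle markers summed to 1344 to 1389 in +/+, 2013 to 2421 in floxed ethanol and 3003 to 3642 in KO cells, mostly through Acta1. Myod1 and Myf5 were not above the filter. Neural and glial markers summed to 5008 to 5587 in +/+ and 2289 to 3111 in KO cells: Sox2, Map2 (-1.27) and Stmn2 (-1.53) were lower and Nes was higher (1.50). The floxed ethanol sums were 2774 to 2936, within the KO range. Means of Map2, Stmn2 and Nes were 576, 1169 and 489 in floxed ethanol cells, beside 481, 1045 and 687 in KO cells. The part of these cell types in the gene groups above was not tested.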

How the data were processed

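Per the labels' protocols, total RNA was column-purified and biotin-labelled in a single-cycle transcription. The values were linear intensities deposited by the authors, 1 for each of 45037 probe sets; their summarisation, background correction and scaling by the authors are not given in the sources used here. A probe set was named where a platform annotation table gave it 1 symbol (34945); 932 had several symbols and 9160 none and were left out. Entrez IDs of 34741 matched a RefSeq table, which changed 0 symbols. Probe sets above the 40th percentile of 3 or more arrays were kept, and the brightest one stood for its gene (13382 of 18193 symbols). limma 3.58.1 in R 4.3.3 (lmFit, contrasts.fit, eBayes) was fitted to log2(intensity + 16) of all 15 arrays in 5 groups of 3, with Benjamini-Hochberg adjustment per contrast. The procedure was tested on simulated data.

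Genes were named by rule: the class I deacetylases, the 12 most raised and 12 most reduced genes that passed without overlap between arrays (clone names passed over), up to 4 changed members per list and role, the cell cycle regulators and the cell type markers. Dlk1, Gclm, Gstt1, Lgr4, Nap1l5, Plk3, Pmaip1, Slc38a4 and Steap3 and the neighbours of Hdac1 that passed were named after their values were seen. The comparison and the 21 gene lists were chosen with earlier results of these data known, and some genes are on several lists. Alternatives were a trended robust eBayes, only the compared arrays, the replicate block, other filters, probe set rules, normalizations, weights and pseudocount, and each array left out. Groups of 3 arrays were not screened for outlying values.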

Additional observations from a re-analysis of the deposited data

How the results depend on the processing

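Over 18 alternatives, the counts of higher p53 targets and higher NRF2 and xenobiotic genes stayed within 1.5 times of those reported. Other counts did not. With only the 6 compared arrays in the fit 27 mitosis genes were lower; quantile normalization and median centring gave 16 and 17 lower replication genes, and a pseudocount of 1 gave 6. With arrayWeights, whose estimation stopped before convergence and gave KO replicate 2 a weight of 0, 912 genes were higher and 689 lower, with 2 replication, 4 mitosis and 7 imprinted genes lower. Weights estimated gene by gene, added after seeing the data, gave 2483 lower genes, with 26 lower replication and 30 lower mitosis genes. When single arrays were omitted, 1281 to 2045 genes were higher and 976 to 2287 lower, with 30 to 33 p53 targets and 16 to 21 NRF2 and xenobiotic genes higher, and 5 to 18 replication, 5 to 17 mitosis, 9 to 13 imprinted and 11 to 23 Hox and positional genes lower. The cause of these shifts was not tested. In a fit with the replicate number as a block (replicate block), 1610 genes were higher and 1396 lower. Same-numbered KO and +/+ arrays deviated from their group means with correlations of -0.00192, -0.0678 and -0.0665, so the numbers do not pair the arrays. Of 202 named genes tested this way, 184 passed the threshold, 142 of these passed in all 18 alternatives, 7 passed in the 14 or 17 that gave them a value, 35 lost the call in at least 1, and 0 reversed; 4 others gained a call. The log2 fold change of 42 of the 184 moved by over 1.5 times in at least 1 alternative, and of 34 it was that much smaller with the mean of probe sets. Calls of Top2a, Smc2, Orc1, Cdc45, Prim1, Cenpi and Cdc25c were among those lost without single arrays. The number of arrays limits the precision.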
